A study of Mus musculus with 13 samples.

Results

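Formative and primed epiblast genes were followed in RNA-seq counts of mouse ES cells with and without induction of a phosphomimic form of CTCF, the zinc finger protein that organises chromatin loops. The genes were chosen by symbol from a list of 10 names, with no threshold on their values. The list was made with earlier results of these data known. Oct6 is the older name of Pou3f1 and shares its row, so the list gave 9 genes, which are Fgf5, Otx2, Pou3f1, Sox3, Zic2, Zic5, Sall2, Pim2 and Lin28b. They are 9 of the 24421 genes in the count tables and 9 of the 20044 that had any count in any library and were tested. All 9 were counted in every library, with 130 to 8151 reads per gene and library.

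The study asked what phosphorylation of CTCF at a single serine does in ES cells, and RNA was sequenced to find the genes that change when S224E, which has glutamic acid at that position, is produced. All 4 RNA libraries came from F1-2.1 cells, an ES cell line of the strain CAST/Ei x 129/Sv/Jae with a Tet-on CTCF S224E transgene. The cells were kept on irradiated MEF feeders in medium with serum and LIF, with 1 μg/mL doxycycline for 6 days (+dox, 2 libraries) or for 6 days without it (−dox, 2 libraries). Cells of both conditions carried the transgene and kept their own Ctcf gene, and all came from 1 clone, A2. RNA of cells with dox but no transgene, or with another form of CTCF, was not analysed here, so dox and S224E cannot be told apart.

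The epiblast passes from a naive state, which LIF helps to hold in culture, through a formative state to a primed state that responds to the signals of gastrulation. Otx2 and Pou3f1 are transcription factors that act early in that passage, and Fgf5, a secreted fibroblast growth factor, is the classical marker of cells that have left the naive state. ES cells in serum and LIF are a mixed population, in which some cells express genes of the later states.

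The libraries held 22899107 to 30206085 reads counted on exons, and the replicates differed beyond sampling error (chi-square divided by its degrees of freedom, 19.2 with dox and 13.2 without, over 13911 genes whose mean reached 1 CPM). CPM here are counts scaled to the size of each library by TMM. Ctcf, whose row cannot separate the transgene from the cells' own gene, stood at 327.1 and 329.3 CPM with dox and at 295.2 and 304.3 CPM without, a log2 fold change of 0.13 (SE 0.09) that did not pass the test (edgeR, adjusted p = 0.475). In RNA reads over the mutated codon the authors found the glutamic acid codon in a minority. They described S224E as present but not strongly overexpressed. The ES cell marker Pou5f1 was at 949.3 to 1254 CPM in the 4 libraries and Sox2 at 683.7 to 829.8 CPM. Of 12 fibroblast genes listed as markers of feeder cells all had a higher mean with dox and none was at 0. Their summed level was 1750 and 951.4 CPM in +dox replicates 1 and 2 and 691.4 and 772.1 CPM in the −dox replicates. The largest part of each sum was Vim, at 759.1 and 527.3 CPM with dox and 360.5 and 429.4 CPM without. How much of these levels came from feeder cells and how much from ES cells was not tested. In bulk RNA, fewer cells that express a gene and less RNA of it per cell cannot be told apart.

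Fgf5 fell with dox, and it was the member called by edgeR's quasi-likelihood test at an adjusted p-value under 0.01. The log2 fold changes of the 9 genes were all negative and ran from -1.97 to -0.17 with a median of -0.25, while the median of all genes with at least 1 CPM was -0.0011. Among the 20044 genes tested, 0.519% were called lower with dox by edgeR, so 1 of 9 members is to be read against that share. DESeq2 called 0 members, against 1.28% of all genes called lower, and 3 members (Fgf5, Pou3f1 and Otx2) had an unadjusted p-value under 0.05 with edgeR, against 17.8% of all genes tested and 23.3% of those with at least 1 CPM. All 9 members were lower with dox in replicate 1 and again in replicate 2, as were 35.7% of the genes with at least 1 CPM. In 6 members both +dox libraries lay below both −dox libraries, as in 27.7% of those genes, and in Zic5, Pim2 and Sall2 the conditions overlapped. Because the members were chosen with earlier results of these data known, these shares describe them and are not a test. The summed level of the members was 770.8 and 573.0 CPM in +dox replicates 1 and 2 and 903.7 and 749.6 CPM in the −dox replicates.

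The replicates also differed for these genes in a direction they shared. All 9 members were lower in replicate 2 than in replicate 1 in both conditions, which held for 26.8% of the genes with at least 1 CPM. Their median log2 fold change was -0.18 in replicate 1 and -0.42 in replicate 2. Without +dox replicate 1, which had the highest summed level of feeder genes, the median over the fitted log2 fold changes was -0.48. Without +dox replicate 2 the median was -0.11, and with −dox replicate 1 or −dox replicate 2 left out it was -0.11 and -0.33. Each of these fits takes the lone library of a condition to vary like the other condition. The part of feeder RNA in the members' values was not tested.

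**Figure D1:**
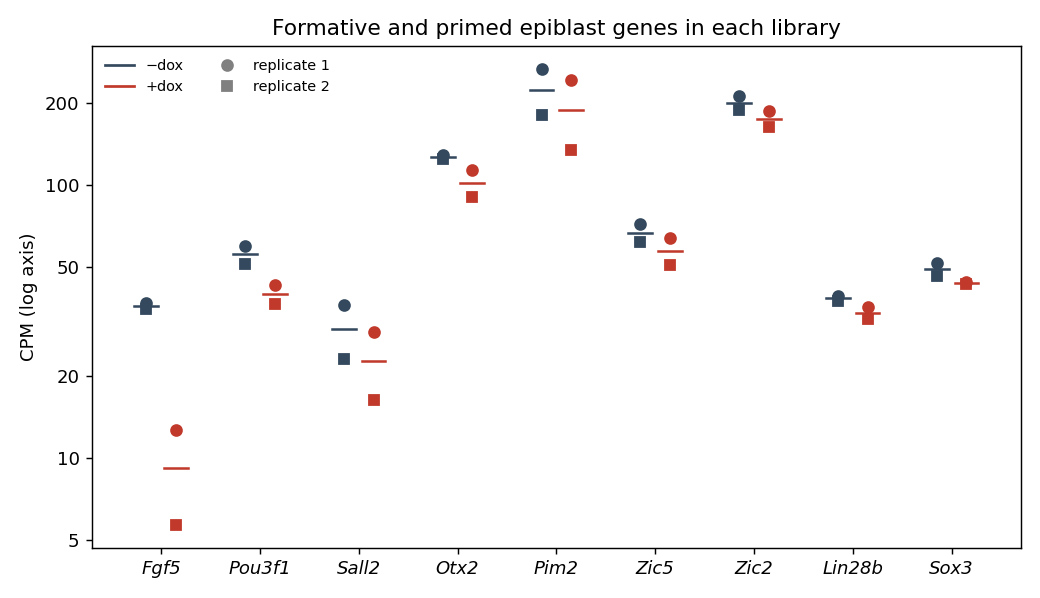
CPM of the 9 genes in each of the 4 libraries on a log axis, with −dox in blue and +dox in red, replicate 1 as circles, replicate 2 as squares and the mean of 2 replicates as a line. The +dox points of Fgf5, at 12.7 and 5.69 CPM, stand far under its −dox points at 36.9 and 35.3 CPM, while the conditions lie closer together in the other genes and Zic5, Pim2 and Sall2 overlap.

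Fgf5 is the secreted ligand among the members, and it signals through Fgf receptors to the MAP kinase pathway. Its reads numbered 286 in replicate 1 and 130 in replicate 2 with dox, against 1128 and 886 without. Scaled to library size this came to 12.7 and 5.69 CPM with dox (mean 9.20 ± 4.96, SD, n = 2) and 36.9 and 35.3 CPM without (36.1 ± 1.15, SD, n = 2). Both +dox libraries were low and did not come near the −dox range, and the spread lay in the +dox condition, where the replicates were 1.15 apart on the log2 scale against 0.06 without dox. The fitted log2 fold change was -1.97 (SE 0.27, 95% interval -2.56 to -1.38), which is 3.93-fold lower, at an adjusted p of 0.00290 in edgeR's quasi-likelihood test. Replicate 1 alone gave -1.53 and replicate 2 alone -2.62. By fitted log2 fold change Fgf5 ranked 36 from the lowest of the 13911 genes with at least 1 CPM. Under DESeq2's Wald test the log2 fold change was -1.97 with an adjusted p of 0.0112, and without −dox replicate 1 or −dox replicate 2 edgeR's adjusted p was 0.550 or 0.670, with log2 fold changes of -1.94 and -2.01. Without +dox replicate 1 the log2 fold change was -2.67. Over the alternatives that kept all 4 libraries the adjusted p of Fgf5 ran from 2.6e-07 (edgeR with a replicate block) to 0.0983 (edgeR with adjusted deviances).

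Fgf5 lies on the forward strand of chromosome 5 at 98683203 to 98706052 (mm9). Its promoter is shown because it belongs to the member that passed the test. The sequence is that of RefSeq (GRCm38.p6), found unchanged in mm9 at chr5:98682953-98683202, and it ends 1 base before the start of the transcript that was counted. Capitals mark ACAAAG, the letters of a SOX motif searched on both strands, which begins 27 bases before the start.
Fgf5: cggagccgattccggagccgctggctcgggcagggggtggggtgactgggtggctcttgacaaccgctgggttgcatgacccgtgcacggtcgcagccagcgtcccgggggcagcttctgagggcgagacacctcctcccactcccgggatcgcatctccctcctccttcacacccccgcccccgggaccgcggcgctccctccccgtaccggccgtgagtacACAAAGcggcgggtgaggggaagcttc
The motif is in 16.5% of 32851 promoters of the same 250 bases, and neither the octamer ATTTGCAT, the motif of POU factors (in 1.60% of promoters), nor TAATCC, the motif of OTX factors (in 6.25%), was in this window. GC made up 70.8% of the bases, against a median of 52.4%, and there were 24 CpG dinucleotides, against a median of 6.

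Otx2 and Pou3f1 are the transcription factors that act first among the members. Otx2, a homeodomain protein that redirects Oct4 to new enhancers in formative cells, was at 113.3 and 90.6 CPM with dox (101.9 ± 16.1, SD, n = 2) and 128.5 and 124.1 CPM without (126.3 ± 3.06, SD, n = 2). Both +dox libraries were under the −dox libraries, with +dox replicate 2 farther away. The log2 fold change was -0.31 (SE 0.12), and it did not pass edgeR's quasi-likelihood test (adjusted p = 0.174). Pou3f1, the POU factor also named Oct6, was at 43.0 and 36.6 CPM with dox (39.8 ± 4.58, SD, n = 2) and 60.0 and 51.5 CPM without (55.8 ± 6.02, SD, n = 2). Its replicates gave nearly the same difference, -0.48 and -0.49 on the log2 scale, and the conditions did not overlap. The fitted log2 fold change of Pou3f1 was -0.49 (SE 0.13, 95% interval -0.78 to -0.20), with an adjusted p of 0.0752 in edgeR's test and 0.0421 in DESeq2, above the threshold of 0.01 in both. Without +dox replicate 1 the log2 fold change was -0.48 for Otx2 and -0.61 for Pou3f1. Without +dox replicate 2 it was -0.16 and -0.38.

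Sox3, Zic2 and Zic5 are transcription factors of the epiblast and of the early neural plate. Sox3, a SoxB1 factor encoded on the X chromosome, was at 44.1 and 43.5 CPM with dox and at 52.0 and 46.5 CPM without. The +dox libraries were nearly equal and lay just below the −dox libraries, with a log2 fold change of -0.17 (SE 0.12, 95% interval -0.43 to 0.10). Zic2, a zinc finger factor that binds enhancers in ES cells, was at 187.1 and 162.6 CPM with dox and at 211.7 and 189.1 CPM without. The conditions were separated only by the gap between 187.1 and 189.1 CPM, and the log2 fold change was -0.20 (SE 0.10, 95% interval -0.42 to 0.03). Zic5, its neighbour, was at 64.0 and 50.9 CPM with dox and at 72.0 and 61.7 CPM without. Here +dox replicate 1 was above −dox replicate 2, and the log2 fold change was -0.22 (SE 0.13, 95% interval -0.51 to 0.07). The adjusted p-values of the 3 genes in edgeR's quasi-likelihood test were 0.526, 0.355 and 0.441, so none was called. The intervals allow a change of up to -0.51 in Zic5, -0.43 in Sox3 and -0.42 in Zic2.

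Lin28b and Pim2 are the members that are neither ligands nor transcription factors. Lin28b, an RNA-binding protein that blocks the maturation of let-7 miRNAs, was at 35.8 and 32.2 CPM with dox and 39.4 and 37.7 CPM without. The conditions did not overlap, but the log2 fold change of -0.18 (SE 0.13, 95% interval -0.46 to 0.10) did not pass edgeR's test (adjusted p = 0.528). Pim2, a serine/threonine kinase that promotes cell survival, was at 241.7 and 134.7 CPM with dox and at 266.9 and 180.5 CPM without. Replicate 1 was high and replicate 2 low in both conditions, by 0.84 and 0.56 on the log2 scale, which is more than the difference between conditions (log2 fold change -0.25, SE 0.22, 95% interval -0.73 to 0.23, edgeR's adjusted p = 0.628). The log2 fold change of Pim2 turned to 0.11 without +dox replicate 2 and to 0.06 without −dox replicate 1, and without +dox replicate 1 it was -0.73. Within each replicate number Pim2 was lower with dox, by -0.14 in replicate 1 and -0.42 in replicate 2.

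The promoter of Pim2 is shown because it is the member promoter with octamer motifs. It was read from RefSeq (GRCm38.p6), is unchanged in mm9 at chrX:7455182-7455431 and ends at the base before the counted transcript on the forward strand. Capitals mark the octamer ATTTGCAT, read on the forward strand 202 bases before the start and on the reverse strand 123 bases before it.
Pim2: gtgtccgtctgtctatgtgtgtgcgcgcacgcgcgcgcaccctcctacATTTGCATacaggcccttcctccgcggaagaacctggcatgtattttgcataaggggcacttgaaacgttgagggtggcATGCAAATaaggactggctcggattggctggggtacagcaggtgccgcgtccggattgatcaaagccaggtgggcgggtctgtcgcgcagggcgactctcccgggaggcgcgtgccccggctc
The octamer is in 1.60% of promoters, and this one held it 2 times. GC made up 62.0% and the CpG dinucleotides numbered 22. Of the 9 members, 6 had a promoter in the RefSeq table, and neither octamers nor SOX motifs were in the windows of Lin28b, Sall2, Zic5 or Otx2. The OTX motif was in 1 of the 4 windows of Otx2, 211 bases before that start. This window, at chr14:49284785-49285034 in mm9, does not adjoin the counted transcript of Otx2, which starts at 49282547 on the reverse strand.

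Sall2, a zinc finger factor of the spalt family, was at 29.0 and 16.3 CPM with dox and at 36.5 and 23.1 CPM without. As with Pim2, replicate 2 was low in both conditions, by 0.83 and 0.66 on the log2 scale, and the conditions overlapped. The log2 fold change was -0.40 (SE 0.25, 95% interval -0.95 to 0.16, edgeR's adjusted p = 0.464). Without +dox replicate 1 it was -0.88, and without +dox replicate 2 it was -0.04. Sall2 was also the member counted over different transcripts. The table of replicate 1 used NM_015772, of 5051 bases, and that of replicate 2 used NM_001244916, of 4764 bases, so that its replicates are not strictly the same measurement, whereas +dox and −dox of 1 replicate are. The transcripts share their end, at 52930852 on chromosome 14 (mm9, reverse strand), and start at 52948345 and 52935998. Both promoters from RefSeq are shown to compare these starts, and they are unchanged in mm9 at chr14:52948346-52948595 and chr14:52935999-52936248, read on the reverse strand. They hold no capitals because none of the 3 motifs was found.
Sall2 start used in replicate 1: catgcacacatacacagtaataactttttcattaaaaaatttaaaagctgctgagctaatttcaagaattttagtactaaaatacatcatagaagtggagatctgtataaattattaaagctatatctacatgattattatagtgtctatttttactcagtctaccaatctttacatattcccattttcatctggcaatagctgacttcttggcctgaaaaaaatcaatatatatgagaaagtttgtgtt
Sall2 start used in replicate 2: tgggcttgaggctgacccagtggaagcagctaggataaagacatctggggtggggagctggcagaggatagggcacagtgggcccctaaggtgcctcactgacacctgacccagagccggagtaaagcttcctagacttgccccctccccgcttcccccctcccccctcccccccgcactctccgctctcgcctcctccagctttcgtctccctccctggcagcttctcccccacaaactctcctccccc
The first had 28.0% GC and 0 CpG dinucleotides, and the second had 64.4% GC and 6 CpG dinucleotides.

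**Figure D2:**
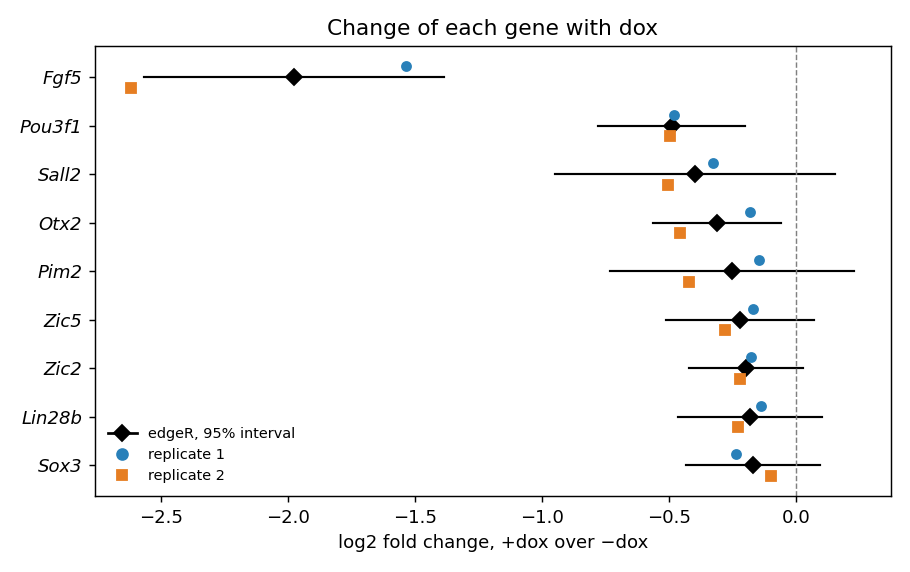
The log2 fold change of each gene, +dox over −dox, as fitted by edgeR (diamond, with its 95% interval) and in replicate 1 (circle) and replicate 2 (square), with a dashed line at no change. All diamonds are left of the line, and the intervals of Fgf5, Pou3f1 and Otx2 do not reach it before correction for the number of genes tested.

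Levels of different genes were compared per length, as RPKM (CPM divided by the length of the listed transcript in kilobases). Without dox Pim2 was the highest at 88.8 to 131.3 RPKM, followed by Zic2 at 63.8 to 71.5, Otx2 at 55.8 to 57.7, Zic5 at 25.9 to 30.3, Sox3 at 22.5 to 25.2, Pou3f1 at 17.1 to 20.0 and Fgf5 at 14.1 to 14.8 RPKM. The lowest were Lin28b at 6.99 to 7.29 RPKM and Sall2 at 4.85 to 7.22 RPKM, and these were the neighbours in the order whose ranges overlapped. With dox the order of the other 8 genes stayed as it was, while Fgf5 moved from place 7 to place 9, at 2.28 to 5.08 RPKM. There its range overlapped that of Sall2, at 3.42 to 5.75 RPKM, and lay below that of Lin28b, at 5.97 to 6.63 RPKM. Zic5 and Sox3 with dox had ranges that nearly touched, at 21.4 to 26.9 and 21.1 to 21.4 RPKM.

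**Figure D3:**
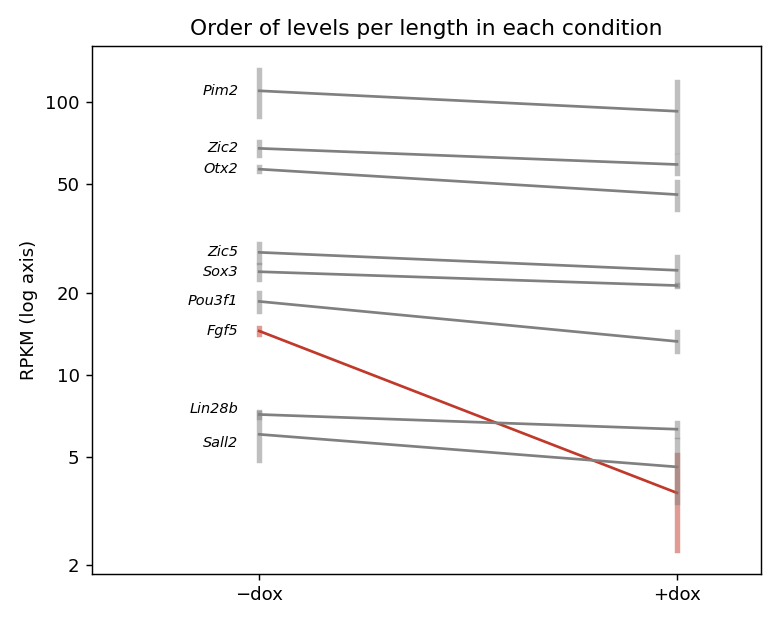
RPKM of the 9 genes on a log axis without and with dox, where lines join the means of 2 replicates and bars span the replicates. The line of Fgf5 (red) crosses those of Lin28b and Sall2, from 14.5 RPKM without dox to 3.68 RPKM with dox, and no other lines cross.

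Other genes of the formative and primed epiblast did not move one way. Of 20 such genes, all with at least 1 CPM, 11 were lower and 9 higher with dox and the median log2 fold change was -0.03. In edgeR's quasi-likelihood test 2 fell and 1 rose, against 102 and 15 of the 13911 genes with at least 1 CPM. Krt18, a keratin of simple epithelia, was at 49.4 and 31.9 CPM with dox and at 143.6 and 172.1 CPM without (log2 fold change -1.96, SE 0.17, adjusted p = 0.000149). Cldn6, a tight junction protein, was at 26.9 and 21.1 CPM with dox and at 64.2 and 51.6 CPM without (log2 fold change -1.27, SE 0.16, adjusted p = 0.00167). Foxd3, a forkhead factor needed in the epiblast, was at 106.5 CPM in both +dox libraries and at 68.6 and 53.1 CPM without dox (log2 fold change 0.81, SE 0.12, adjusted p = 0.00573). Krt18 and Cldn6 encode parts of epithelial cells, not regulators of the epiblast state. DESeq2 called the same counts in each direction for this list, against 257 lower and 118 higher among the 13911 genes.

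Paralogues of the members mostly had positive log2 fold changes. Of 16 listed, 13 had at least 1 CPM. With dox 10 of these were higher and 3 lower, and the median log2 fold change was 0.25. By edgeR 0 were called and by DESeq2 0. With edgeR 5 had an unadjusted p-value under 0.05, as did 23.3% of all genes with at least 1 CPM. The lowest was Pim1 at -0.05 and the highest Sox1, a SoxB1 factor of neural progenitors like Sox3, at 1.26 (SE 0.31, edgeR's adjusted p = 0.0504), with 2.93 and 3.24 CPM with dox against 1.47 and 1.08 CPM without. Lin28a, at a log2 fold change of -0.03, is counted both here and among the other formative and primed genes. Genes of 1 family can share reads. The authors describe the counted reads as unique, and the part of shared reads in these values was not tested.

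The receptors and feedback genes of the Fgf pathway had log2 fold changes on both sides of 0. Of 10 genes 7 were lower with dox and 3 higher, the median log2 fold change was -0.07, and 0 were called by edgeR or DESeq2 while 3 had an unadjusted p-value under 0.05. Fgfr3, a receptor tyrosine kinase, was the lowest at -0.87 (SE 0.26, edgeR's adjusted p = 0.0966), with 6.35 and 8.58 CPM with dox against 10.1 and 17.3 CPM without. Spry4, a feedback inhibitor of the pathway, was the highest at 0.39 (SE 0.13, edgeR's adjusted p = 0.133). Around Lin28b, 7 genes of the let-7 pathway were followed, namely enzymes that modify or degrade let-7 precursors and targets of let-7. With dox 6 of these were lower and 1 higher, the median log2 fold change was -0.19, and 0 were called by edgeR or DESeq2 while 3 had an unadjusted p-value under 0.05. Arid3a, a DNA-binding factor, was the lowest at -0.46 (edgeR's adjusted p = 0.110), and Igf2bp1, an RNA-binding protein, was the highest at 0.09. Of all genes with at least 1 CPM, 23.3% had an unadjusted p-value under 0.05 with edgeR.

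**Figure D4:**
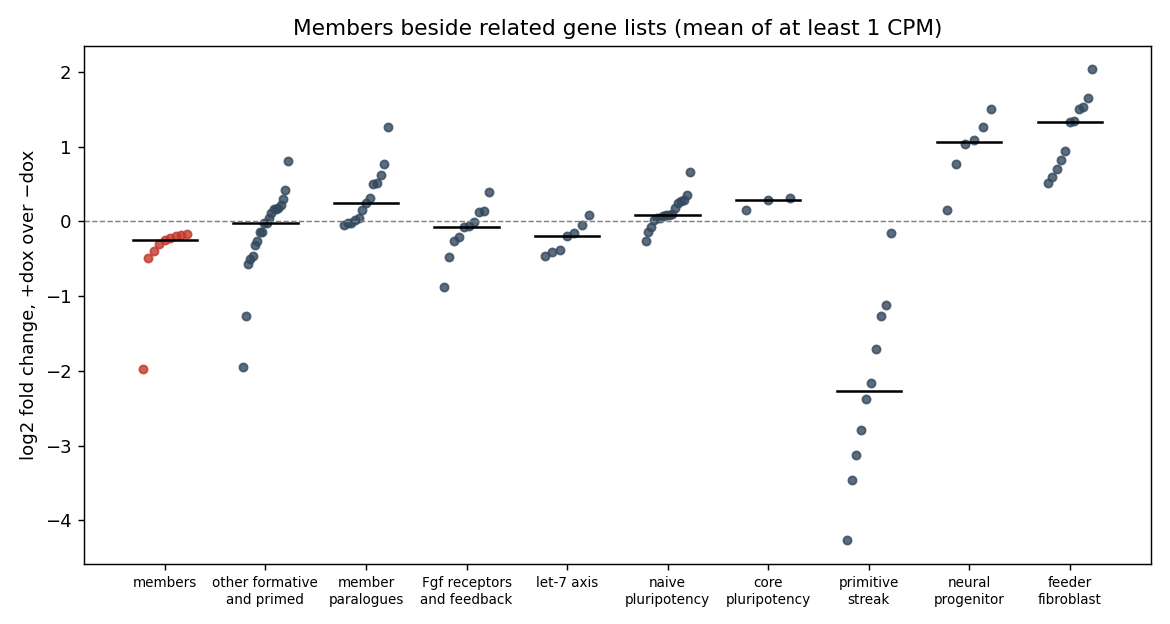
The log2 fold change, +dox over −dox, of every listed gene whose mean reached 1 CPM, with the median of the list as a line and the 9 members in red. The members all lie below 0 with a median of -0.25, primitive streak genes lie lower (median -2.27), and neural progenitor and feeder genes lie higher (medians 1.06 and 1.33).

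The members are spread over 5 chromosomes (4, 5, 10, 14 and X), with Otx2, Sall2, Zic2 and Zic5 on chromosome 14 and Sox3 and Pim2 on X. Zic2 and Zic5 are divergent neighbours whose starts are 9726 bases apart, Zic2 at 122874606 to 122879550 on the forward strand and Zic5 at 122858382 to 122864880 on the reverse strand (mm9). Their log2 fold changes, -0.20 and -0.22, were nearly the same, and 2610035F20Rik, which lies between them, was at 0.18. In the GENCODE annotation of the same build, no exon of another gene overlapped an exon of a member. The nearest expressed genes, with gaps of 185 to 5122468 bases to the member, had log2 fold changes on both sides of 0. Taking the 2 nearest genes with at least 1 CPM on each side of each member, a choice made after the members' values were seen, 13 of 33 were lower and 20 higher with dox, with a median log2 fold change of 0.04. By edgeR 0 were called and by DESeq2 0. With edgeR 5 had an unadjusted p-value under 0.05, as did 23.3% of all genes with at least 1 CPM. All 4 neighbours of Otx2 were lower, from -0.34 (Peli2) to -0.0067 (Tmem260), and so were all 4 of Sox3. Clybl, beside Zic5, was at -0.64. The genes that flank Fgf5 were at -0.34 (Naa11), 0.69 (Antxr2), 0.32 (Mir703) and 0.48 (Prkg2), and they were low, at 1.71 to 8.49 CPM. They lie 198523 to 861854 bases from Fgf5. Pim2 sits 1680 bases from Otud5 and 812 bases from Slc35a2, which were at 0.22 and 0.24 while Pim2 was at -0.25. The remaining members are Otx2 on chromosome 14 at 49277352 to 49282547 (reverse), Pou3f1 on chromosome 4 at 124334889 to 124337899 (forward), Sox3 on X at 58144541 to 58146605 (reverse), Pim2 on X at 7455432 to 7460558 (forward) and Lin28b on chromosome 10 at 45096425 to 45190007 (reverse).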

How the data were processed

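RNA was sequenced from 2 +dox and 2 −dox cultures, which the methods call biological replicates. The authors used cutadapt for trimming, TopHat2 for alignment to mm9 and, after removal of PCR duplicates, HOMER to count unique reads on exons. They deposited raw counts per gene in 1 table per replicate. Tool versions and the use of strand in counting are not given in the sources used here. The transcript length in bases, deposited beside the counts, served only for RPKM.

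Tables were joined by symbol. The 20044 genes that had 1 or more counts in any library were tested with edgeR 4.0.16 (R 4.3.3), TMM normalization and the quasi-likelihood test with default settings and no replicate block, with Benjamini-Hochberg adjustment over all genes and a threshold of 0.01. DESeq2 1.42.0, the tool of the study's methods, was the alternative. Log2 fold changes of single replicates used a prior count of 2. Standard errors come from the test statistic and intervals from 12.3 degrees of freedom, most of them borrowed across genes. With 2 libraries per condition, an exact permutation test of 1 gene cannot go below p = 0.333 (two-sided), so none was run.

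The members and lists were chosen with earlier results of these data known, and lists are described by counts and medians without a test. Named genes are every member and, in each list, the genes past the threshold and the highest and lowest of those with at least 1 CPM. Others (Ctcf, Pou5f1, Lin28a and the neighbours) were chosen apart from that rule, the neighbours after their values were seen. Motifs were searched on both strands. Alternatives were other tests, scaling, filters, thresholds, shared transcripts only and each library left out. The ChIP-seq and Hi-C samples were not used here.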

Additional observations from a re-analysis of the deposited data

How the results depend on the processing

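The members' log2 fold changes were negative under every alternative that kept all 4 libraries, while the calls varied. Against 120 genes called and 1 member (Fgf5), DESeq2 called 375 genes and 0 members, filterByExpr 11 and 0 (Fgf5 at an adjusted p of 0.0414), and deviances adjusted for small counts 0 and 0 (3254 genes with an unadjusted p-value under 0.05, Fgf5 at an adjusted p of 0.0983). Fgf5 was the member called in the likelihood ratio test, among 457 genes, and at a threshold of 0.05, among 573. Lower genes made up 86.7% of the calls, against 68.5% with DESeq2, 67.5% at the threshold of 0.05, 71.6% in the likelihood ratio test and 100% with filterByExpr. With the replicate number as a block (replicate block) 786 genes were called, 59.8% of them lower, and Fgf5 had a log2 fold change of -2.05. The pairing is open to doubt, since same-numbered libraries deviated together only with a correlation of 0.196 across genes and there are 2 pairs. The block changed no member's call, but 6 members had an unadjusted p-value under 0.05 in edgeR's test, against 3 without it. The adjusted p fell to 0.0128 from 0.0752 for Pou3f1, to 0.0516 from 0.628 for Pim2 and to 0.0739 from 0.464 for Sall2. It moved little for Sox3, to 0.506 from 0.526, and for Lin28b, to 0.488 from 0.528. All 9 members were lower in replicate 2 in both conditions.

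Without each library in turn, the genes called ran from 0 to 992, the members called from 0 to 5 and their median log2 fold change from -0.48 to -0.11. With −dox replicate 1 or 2 left out, 0 genes were called while 1753 and 1450 had an unadjusted p-value under 0.05. These fits take the lone library of a condition to vary like the other condition. The log2 fold change of Pim2 reversed to 0.11 without +dox replicate 2 and to 0.06 without −dox replicate 1. Without +dox replicate 1 it was -0.73, and without −dox replicate 2 it was -0.50. Sox3, Zic2, Zic5 and Lin28b kept their direction and stayed short of the threshold under all 14 alternatives. Levels per length moved by less than the replicate spread with total counts or the other transcript. The cause of these shifts was not tested. Every member had at least 130 reads in every library.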

Other observations

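Around the members' state, genes of the later primitive streak were lower with dox. Of 11 listed, 10 had at least 1 CPM, all 10 were lower, and 6 fell in edgeR's quasi-likelihood test, with a median log2 fold change of -2.27. Among all 13911 genes with at least 1 CPM that test called 102 lower and 15 higher. Of those genes 23.3% had an unadjusted p-value under 0.05 in it. The transcription factors Lhx1, Mixl1, T, Foxa2 and Eomes were at -4.27, -3.46, -3.13, -2.79 and -1.71, and the ligand Fgf8, unlike the ligand Fgf5 a signal of the streak itself, was at -2.38. The highest of these was Evx1 at -0.15, and Mesp1, under 1 CPM, was at -0.79. The other states did not give calls in that direction. Of 16 naive genes 13 were higher and 3 lower, with a median of 0.08, from Tfcp2l1 at -0.26 to Gbx2 at 0.66, and 0 were called by edgeR or DESeq2 while 6 had an unadjusted p-value under 0.05. The core factors Sox2 (0.15), Pou5f1 (0.29) and Sall4 (0.31) were all higher with dox, with 0 called by either tool and 2 at an unadjusted p-value under 0.05.

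Of 7 neural progenitor genes, 6 had at least 1 CPM, all 6 were higher with dox, and 2 rose in edgeR's test, with a median of 1.06. Among all 13911 genes with at least 1 CPM, edgeR called 15 higher and DESeq2 118. Of those genes 23.3% had an unadjusted p-value under 0.05 with edgeR. Nkx2-9, a homeodomain factor, was at 1.50 (adjusted p = 0.00395) and Pax6, a paired box factor, at 1.09 (adjusted p = 0.00573), with 26.4 and 34.0 CPM with dox against 14.5 and 13.9 CPM without, and the lowest of the 6 was Nes at 0.16. Hes5, the remaining gene, had a mean of 0.86 CPM and the opposite sign, with 0.49 and 0.57 CPM with dox against 1.24 and 1.16 CPM without (log2 fold change -1.18, SE 0.42, edgeR's adjusted p = 0.160). Sox1 and Zic1 of this list are paralogues of the members Sox3, Zic2 and Zic5. Of 11 feeder genes with at least 1 CPM, all 11 were higher with dox with a median of 1.33, from Fbn1 at 0.51 to Postn at 2.03. By edgeR 0 of them were called and by DESeq2 1 (Vim), and 10 had an unadjusted p-value under 0.05. Replicate 1 gave a median of 1.46 for them and replicate 2 one of 0.42. Their part in the values of the other lists was not tested.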
